A study of Mus musculus with 4 samples.

Results

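The genes described here are 49 enzymes and transporters of glucose uptake and glycolysis, pyruvate and lactate metabolism, the tricarboxylic acid (TCA) cycle and mitochondrial fatty acid oxidation. Their expression was compared between 2 regions of the embryonic mouse heart. A gene was read from the probe sets annotated with its symbol alone, and among these from the probe set of highest mean over the 4 arrays. This gave 46 genes with a test, out of 12393 genes with such a probe set on the array and 8410 genes bright enough to be tested. Of the other 3, Gapdh was present only on control probe sets and on probe sets shared with other symbols. Gpi1 and Eno1 had no probe set of their own. The rule names the genes and uses no difference between the regions, but the genes were chosen with earlier results of these data known.

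The AV junction group was the atrioventricular junction of wild-type C57BL/6 mouse hearts at embryonic day 10.5 to 11.0, from which 230 ng of RNA was amplified. The ventricular region group was the ventricular tissue of wild-type C57BL/6 hearts of the same stage, from which 250 ng of RNA was amplified. About 80 hearts were dissected and pooled, and the RNA of a region was hybridised in duplicate, as 1a and 1b, to Affymetrix MOE430A arrays. The labels do not state separate pools for 1a and 1b, so p-values cover the spread between arrays, which may be technical. The labels name no agent and no altered allele in either region. Values are MAS5 intensities scaled to a common trimmed mean of 500 on each array, and every log2 fold is the AV junction value less the ventricular one.

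Glycolysis splits glucose into pyruvate in the cytosol and can run without oxygen when pyruvate is turned into lactate. In mitochondria the pyruvate dehydrogenase complex turns pyruvate into acetyl-CoA, beta-oxidation makes acetyl-CoA from fatty acids, and the TCA cycle oxidises it to feed the respiratory chain. The early embryonic heart is known to rely largely on glycolysis, and the cardiac muscle shifts towards mitochondrial and, after birth, fatty acid oxidation as it matures.

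The arrays carried the marks of both tissues. The summed intensity of 4 AV canal muscle genes was 3043 to 3242 on AV junction arrays, against 460 to 481 on ventricular arrays. The sum of 8 cushion mesenchyme genes was 7527 to 9614 on AV junction arrays and 1041 to 1307 on ventricular arrays. The sum of 9 ventricular chamber genes was 26801 to 27974 on AV junction arrays, against 84071 to 88386 on ventricular arrays. General cardiac muscle genes, 10 in number, summed to 129639 to 132988 on AV junction arrays and to 172212 to 190877 on ventricular arrays. The ratio was 0.723, and 5 of the 10 passed the test as lower and 0 as higher. The widest gaps were in Myh7 (mean 18930 on AV junction arrays and 37370 on ventricular arrays) and Myl3 (16975 and 35555). Of the 10 log2 folds 2 were above 0, Myh6 at 0.18 and Ttn at 0.03, and neither passed. Erythroid genes summed to 18207 to 18397 on AV junction arrays, against 47106 to 52367 on ventricular arrays, over 8 genes, with Epb42 below background on every array. Hepatic and yolk sac genes summed to 6458 to 6950 on AV junction arrays and 258 to 350 on ventricular arrays, and 5 of 5 were on the array. Endothelial and endocardial genes summed to 2446 to 2878 on AV junction arrays and 1649 to 1810 on ventricular arrays, with Pecam1 and Tie1 below background on every array. Epicardial genes, 4 in number, summed to 1842 to 1921 on AV junction arrays and 2411 to 2586 on ventricular arrays. The part of these cell type differences in the results on metabolic genes was not tested. In dissected tissue, fewer cells of a type and less RNA per cell cannot be told apart.

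Of the 46 metabolic genes tested, 1 was higher in the AV junction and 5 were lower, and 40 did not pass. The gene that rose was Slc2a3, a high-affinity glucose transporter. Those that fell were Hk1 and Eno3 of glycolysis, Pdhb and Dlat of the pyruvate dehydrogenase complex, and Acadvl of fatty acid oxidation. A gene passed at an adjusted p of at most 0.05 in limma, over all probe sets tested. The share that passed was 13.0% of the metabolic genes, against 15.0% of all genes tested and 29.4% of the brightest 20% of genes, which held 31 of the 46. In the higher direction 2.17% passed, against 8.47% of all genes and 17.5% of the brightest 20%. In the lower direction 10.9% passed, against 6.56% of all genes and 11.9% of the brightest 20%. At an unadjusted p under 0.05 there were 15 lower and 1 higher among the 46 metabolic genes, while 17.2% of all genes were lower and 16.0% higher. Slc2a3 also passed with median scaling, without the intensity floor and without the variance trend of limma. Of the 5 genes that fell, only Eno3 passed with median scaling, only Hk1 without the floor and 0 without the trend.

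Most of the metabolic genes lay slightly below 0. Of the 46 log2 folds 35 were below 0 (76.1%, against 55.2% of all genes), and their median was -0.16, against -0.06 over all genes. Bright genes on these arrays leaned the other way, with a median of 0.05 and 43.1% of folds below 0 among the brightest 20%. Dim genes leaned below 0, with a median of -0.22 and 70.2% of folds below 0 among the dimmest 20%, which held 2 of the 46. Both AV junction arrays lay below both ventricular arrays for 30 metabolic genes (65.2%, against 34.7% of all genes). They lay above both ventricular arrays for 4 (8.70%, against 27.7%), and the regions overlapped for 12. Over both directions 62.4% of all genes showed no overlap. The summed intensity of the 46 genes made up 1.14% and 1.18% of all intensity on AV junction arrays, against 1.24% and 1.25% on ventricular arrays. When arrays were instead scaled to a common median of log2 values, the median over all genes was 0.10, the metabolic median was 0.00, and 22 of 46 folds were below 0. The pathway medians were then 0.03 in glycolysis, 0.01 at the pyruvate branch, -0.02 in the TCA cycle and -0.07 in fatty acid oxidation. This scaling shifts every fold alike, so it leaves the place of the genes relative to each other as it was, with 35 of 46 below the median of all genes.

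**Figure D1:**
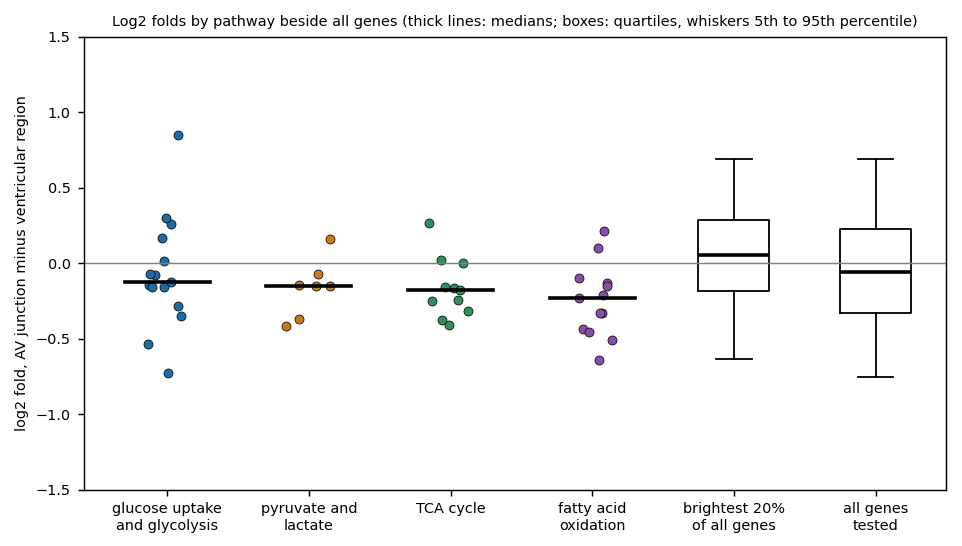
Log2 folds (AV junction minus ventricular region, vertical axis) of the metabolic genes by pathway, 1 point per gene with the median as a thick line, beside boxes for the brightest 20% of genes and for all genes tested. The 4 pathway medians lie between -0.13 and -0.23, below the medians of -0.06 for all genes and 0.05 for bright genes.

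The set opens with glucose entry, where the only gene called higher was found. Slc2a3, which encodes the transporter GLUT3, had intensities of 2548 and 2712 on the AV junction arrays, against 1507 and 1365 on the ventricular arrays. Both AV junction arrays were above both ventricular arrays, and the 2 regions were separated by more than their spread. The log2 fold was 0.85 (SE 0.10, 95% interval 0.61 to 1.10, limma adjusted p = 0.00321), or 1.80-fold. The other Slc2a3 probe set bright enough to be tested had 2412 and 2541 on AV junction arrays and 1194 and 1340 on ventricular arrays, with a log2 fold of 0.94 and a limma adjusted p of 0.00238. Both probe sets carry a suffix by which the manufacturer marks probes that may match more than 1 transcript. Its 2 remaining probe sets were under the intensity floor of 100 and were not tested. The limma adjusted p of the brightest one was between 0.0130 and 0.0270 when any 1 array was left out.

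Slc2a1, which encodes GLUT1, the widely expressed basal glucose transporter, gave no single answer. Its brightest probe set had 9177 and 8367 on AV junction arrays, against 9854 and 9302 on ventricular arrays, a log2 fold of -0.13 (limma adjusted p = 0.381). Its second probe set had 3346 and 3053 on AV junction arrays and 2213 and 2348 on ventricular arrays, a log2 fold of 0.48 that passed (limma adjusted p = 0.0217), and a dimmer one had a log2 fold of 0.17 (limma adjusted p = 0.358). The probe sets of Slc2a1 thus disagree in direction, and the region in which it is higher is uncertain. The log2 ratio of the brightest Slc2a1 probe set to that of Slc2a3 was 1.83 and 1.61 on AV junction arrays, against 2.67 and 2.72 on ventricular arrays, a shift of -0.98.

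Hexokinases trap glucose by phosphorylation, the first step of glycolysis. Hk1, the form found in most tissues, had 1851 and 1831 on AV junction arrays and 2792 and 2598 on ventricular arrays. Its arrays did not overlap and the AV junction pair was nearly equal. The log2 fold of Hk1 was -0.54 (SE 0.10, 95% interval -0.76 to -0.31, limma adjusted p = 0.0137), or 1.45-fold lower. A far brighter probe set, shared with other symbols, had 18832 and 18610 on AV junction arrays and 22935 and 24869 on ventricular arrays. Its log2 fold of -0.35 passed (limma adjusted p = 0.0397), but which symbol gave its signal cannot be told. A dim probe set of Hk1 alone had -0.29 (limma adjusted p = 0.467). Hk2, the insulin-responsive form of muscle, had 1126 and 1277 on AV junction arrays, against 1245 and 1286 on ventricular arrays. Its regions overlapped, and its log2 fold was -0.07 (limma adjusted p = 0.687). The log2 ratio of Hk1 to Hk2 was 0.69 and 0.50 on AV junction arrays, against 1.13 and 0.99 on ventricular arrays, a shift of -0.46.

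Eno3, the muscle form of enolase, which makes phosphoenolpyruvate, showed the largest decrease among the 46. It had 911 and 1237 on AV junction arrays, against 1789 and 1796 on ventricular arrays. The regions did not overlap, although the 2 AV junction arrays differed more from each other than the ventricular arrays did. The log2 fold of Eno3 was -0.73 (SE 0.15, 95% interval -1.08 to -0.38, limma adjusted p = 0.0205), or 1.66-fold lower. Eno1, the general enolase, could not be set beside it.

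The calls of Hk1 and Eno3 depended on single arrays. Hk1 passed without AV junction 1a (adjusted p = 0.0468) and missed without AV junction 1b (0.0503), without ventricular 1a (0.0828) and without ventricular 1b (0.0506), all from limma. Eno3 passed without AV junction 1b (adjusted p = 0.0106) and missed without AV junction 1a (0.0558), without ventricular 1a (0.0882) and without ventricular 1b (0.0877), also from limma.

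The middle steps of glycolysis gave small differences that did not pass. Phosphofructokinase commits sugar to glycolysis, and its 3 subunit genes had log2 folds of -0.35 for the liver form Pfkl, 0.26 for the muscle form Pfkm and -0.14 for the platelet form Pfkp. Aldolase, which splits the sugar, had 0.01 for Aldoa and 0.30 for Aldoc, and the triose isomerase gene Tpi1 had -0.16. Pgk1, which makes ATP from bisphosphoglycerate and was the brightest glycolytic gene without a call, had 25984 and 28888 on AV junction arrays, against 33611 and 33218 on ventricular arrays. Its AV junction arrays were both lower, with a log2 fold of -0.29 (SE 0.09, limma adjusted p = 0.0802), which was -0.07 with quantile normalisation and -0.13 with median scaling. Phosphoglycerate mutase had log2 folds of -0.07 for Pgam1 and 0.17 for the muscle form Pgam2, and the pyruvate kinase gene Pkm had -0.16. Over the pathway 15 of 18 genes were tested, 1 rose, 2 fell and 12 did not pass (20.0% called, against 15.0% of all genes). The median log2 fold was -0.13.

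Gapdh, the glyceraldehyde phosphate dehydrogenase that is often used as a loading control, was read only from controls and was not tested. Its 3' control probe set had 9286 and 9697 on AV junction arrays, against 10100.4 and 10725.5 on ventricular arrays. Its middle control had 1146 and 1127 on AV junction arrays and 1272 and 1264 on ventricular arrays, and its 5' control 570.0 and 647 on AV junction arrays and 580.3 and 584 on ventricular arrays. The log2 differences were -0.13, -0.15 and 0.06 in that order, and 0.02 for a probe set it shares with other symbols. The ratio of the 3' to the 5' control, a measure of how far the amplified RNA reaches, was 16.3 and 15.0 on AV junction arrays, against 17.4 and 18.4 on ventricular arrays. Its part in the differences of other genes was not tested.

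**Figure D2:**
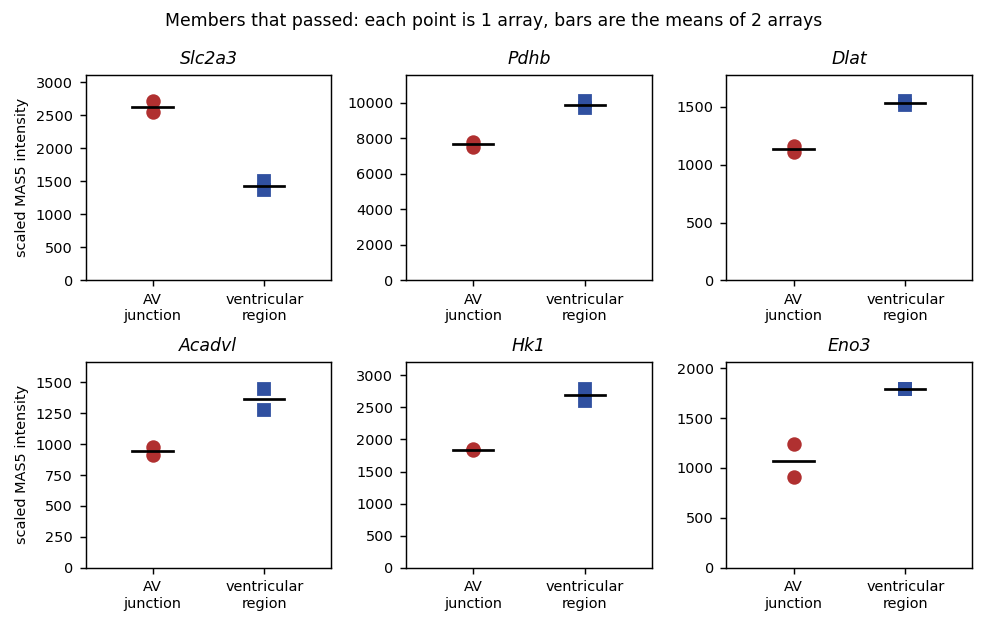
Scaled intensity (vertical axes from 0) of the 6 genes that passed, with 1 point per array, AV junction in red on the left and ventricular region in blue on the right, and the mean of n = 2 arrays as a bar. Slc2a3 is higher on both AV junction arrays, and the other 5 genes are lower on both, without overlap in any panel.

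At the branch between lactate and acetyl-CoA, 2 of 7 genes fell in the AV junction, 0 rose and 5 did not pass. The share called was 28.6%, against 15.0% of all genes and 29.4% of the brightest 20%, and the median log2 fold was -0.15. Both genes that fell encode parts of the pyruvate dehydrogenase complex, the gate through which pyruvate enters the TCA cycle. Pdhb, the beta subunit of its first enzyme, had 7509 and 7812 on AV junction arrays, against 9709 and 10090.6 on ventricular arrays. The AV junction arrays were both lower, and the gap was larger than the spread within either region. The log2 fold of Pdhb was -0.37 (SE 0.09, 95% interval -0.57 to -0.17, limma adjusted p = 0.0315), or 1.29-fold lower.

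Dlat, the acetyltransferase that forms the core of the complex, had 1164 and 1108 on AV junction arrays and 1512 and 1547 on ventricular arrays. Its arrays did not overlap. The log2 fold of Dlat was -0.41 (SE 0.10, 95% interval -0.66 to -0.17, limma adjusted p = 0.0410), or 1.33-fold lower, which placed it just inside the threshold. Its 2 other probe sets had log2 folds of -0.34 (limma adjusted p = 0.119) and -0.06 (limma adjusted p = 0.769), and the other one of Pdhb had -0.25 (limma adjusted p = 0.347). Neither gene passed when any 1 of the 4 arrays was left out, with limma adjusted p-values of 0.0890 to 0.146 for Pdhb and 0.0852 to 0.151 for Dlat.

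The remaining genes of the complex did not pass. Pdha1, the alpha subunit beside Pdhb, had a log2 fold of -0.07, and Dld, the dehydrogenase that the complex shares with other complexes, had -0.15. Pdk1, the kinase that switches the complex off, had -0.15. Second probe sets had -0.44 for Pdha1 (limma adjusted p = 0.207) and -0.31 for Pdk1 (limma adjusted p = 0.0711). The lactate dehydrogenases turn pyruvate into lactate and back. Ldha, the form that predominates in glycolytic tissue, had 10286 and 12377 on AV junction arrays and 9246 and 11018 on ventricular arrays, which overlapped (log2 fold 0.16, limma adjusted p = 0.417). Ldhb, the form of oxidative tissue such as adult heart, had a log2 fold of -0.14 (limma adjusted p = 0.320). Its other probe sets had -0.12, -0.13 and 0.16, and none passed. The log2 ratio of Ldha to Ldhb was higher by 0.30 in the AV junction, at 0.67 and 1.05 on AV junction arrays and 0.40 and 0.72 on ventricular arrays, with overlap.

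In the TCA cycle 0 of 11 genes passed in limma (against 15.0% of all genes). At an unadjusted limma p under 0.05, 3 of 11 were lower (against 17.2% of all genes). The folds were below 0 for 8 of 11 (72.7%, against 55.2% of all genes), with a median of -0.18. For those same 8 genes both AV junction arrays lay below both ventricular arrays (72.7%, against 34.7% of all genes). Mdh2, the mitochondrial malate dehydrogenase and the brightest of the cycle, had 17043 and 16242 on AV junction arrays, against 19487 and 19989 on ventricular arrays. Its arrays did not overlap, with a log2 fold of -0.25 (SE 0.08, limma adjusted p = 0.0971), which was -0.03 with quantile normalisation and -0.09 with median scaling.

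Isocitrate dehydrogenase 3, the NAD-dependent enzyme of the cycle, came nearest to the threshold, and its values are given because they lay just outside. Idh3a, the catalytic subunit, had 2532 and 2402 on AV junction arrays and 2992 and 3449 on ventricular arrays (log2 fold -0.37, limma adjusted p = 0.0578). Idh3b had 3164 and 3095 on AV junction arrays, against 3867 and 3945 on ventricular arrays (log2 fold -0.32, limma adjusted p = 0.0570), and the third subunit, Idh3g, had a log2 fold of -0.16. All 4 arrays kept the regions apart for Idh3a and Idh3b, but their other probe sets were less clear, at 0.10 and -0.36 for Idh3a and -0.06 for Idh3b. Idh3a and Idh3b passed with quantile normalisation (limma adjusted p = 0.0319 and 0.0383), but had log2 folds of -0.22 and -0.16 with median scaling (limma adjusted p = 0.278 and 0.355) and of -0.21 and -0.19 with probe sets averaged (limma adjusted p = 0.267 and 0.187).

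The rest of the cycle was spread around and below 0. Citrate synthase, Cs, which starts the cycle, had a log2 fold of 0.02, and Suclg1, a subunit of succinyl-CoA ligase, had 0.00. The ligase subunits that set the choice of nucleotide were Sucla2 at -0.18 and Suclg2 at 0.26, with Suclg2 dim and above background on 1 of 2 ventricular arrays. Ogdh, of the oxoglutarate dehydrogenase complex, was also dim and had -0.41 with a 95% interval of -0.97 to 0.15. Fumarase, Fh1, had -0.16, and Mdh1, the cytosolic malate dehydrogenase, had -0.25 on its brightest probe set and -0.68 and -0.65 on others, which did not pass.

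**Figure D3:**
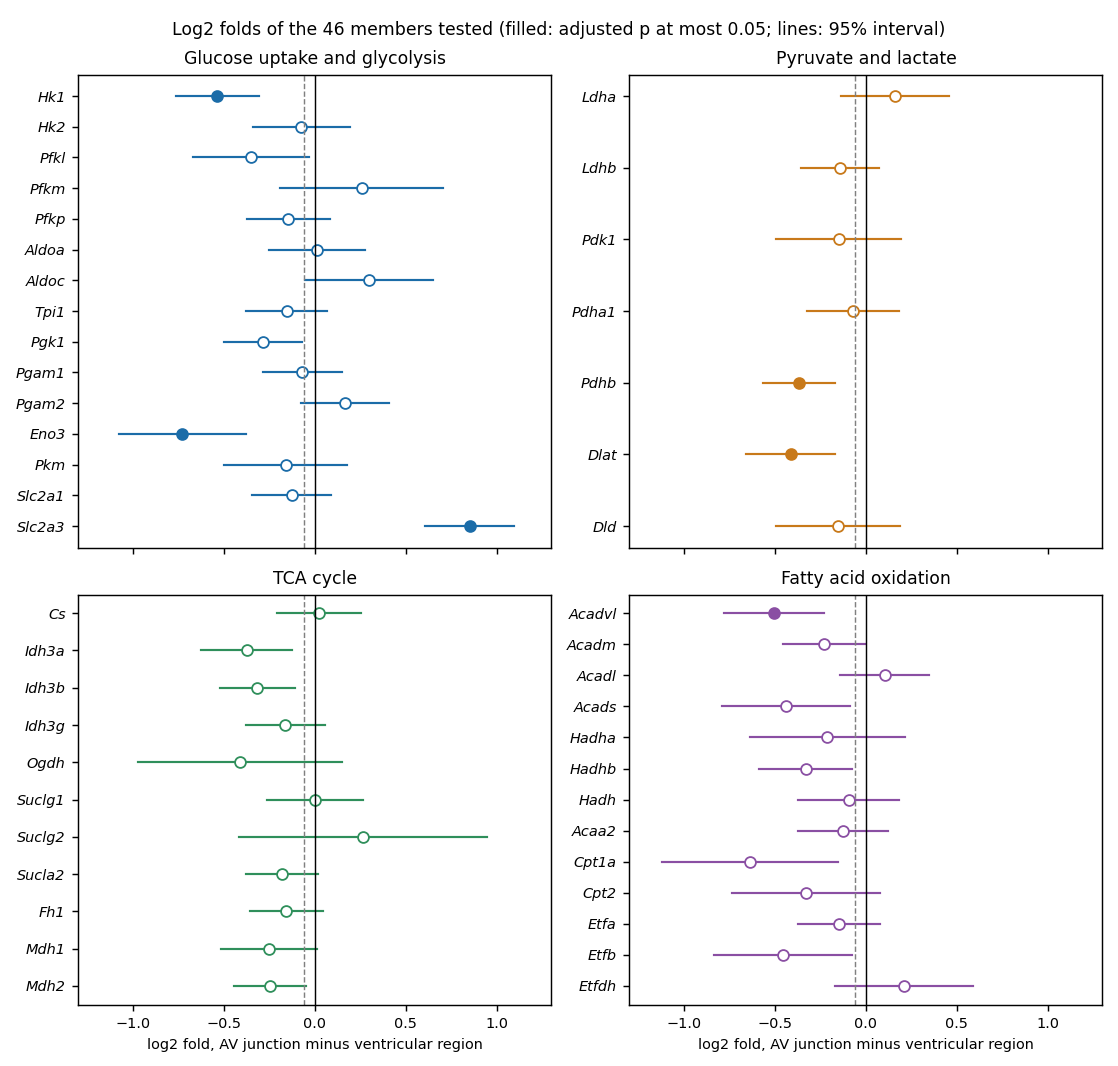
Log2 folds (AV junction minus ventricular region, horizontal axes) with 95% intervals for the 46 genes tested in 4 panels, filled where the adjusted p was at most 0.05, with a dashed line at the median of all genes (-0.06). Slc2a3 at 0.85 stands alone on the right, and 35 of the 46 points lie below 0.

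Fatty acid oxidation had the lowest median of the 4 pathways, -0.23, with 11 of 13 folds below 0 (84.6%, against 55.2% of all genes). Both AV junction arrays lay below both ventricular arrays for 10 of 13 (76.9%, against 34.7% of all genes). Here 1 gene fell, 0 rose and 12 did not pass (7.69% called, against 15.0% of all genes). At an unadjusted limma p under 0.05, 6 of 13 were lower (against 17.2% of all genes). Acadvl, the acyl-CoA dehydrogenase that opens the oxidation of very long chains at the inner membrane, had 976 and 910.3 on AV junction arrays and 1275 and 1449 on ventricular arrays. The regions did not overlap, and the AV junction pair was the closer. The log2 fold of Acadvl was -0.51 (SE 0.12, 95% interval -0.78 to -0.23, limma adjusted p = 0.0322), or 1.42-fold lower. It missed the threshold when any 1 array was left out, at limma adjusted p-values of 0.0660 to 0.151.

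The dehydrogenases for shorter chains did not pass, with log2 folds of -0.23 for the medium-chain Acadm, -0.44 for the short-chain Acads and 0.10 for the long-chain Acadl. Cpt1a, the liver-type carnitine palmitoyltransferase that controls entry of fatty acids into mitochondria, was dim and had the lowest fold of the pathway. It had 164 and 223 on AV junction arrays, against 365 and 289.8 on ventricular arrays, with a log2 fold of -0.64 whose 95% interval ran from -1.12 to -0.15 (limma adjusted p = 0.0824). Its values were chosen for print after they were seen. Cpt2, the partner enzyme on the inner membrane, had -0.33.

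Later steps gave the same direction in most genes. The trifunctional protein subunits Hadha and Hadhb had log2 folds of -0.21 and -0.33, and the thiolase Acaa2 had -0.13. Hadh, the hydroxyacyl-CoA dehydrogenase of shorter chains and the brightest gene of the pathway, had 22547 and 28404 on AV junction arrays and 26903 and 27147 on ventricular arrays. Its AV junction arrays fell on either side of the ventricular arrays (log2 fold -0.09, limma adjusted p = 0.620). The flavoproteins that pass electrons from these enzymes to the respiratory chain had -0.15 for Etfa, -0.45 for Etfb and 0.21 for Etfdh. Etfb had 2998 and 4349 on AV junction arrays, against 4879 and 5061 on ventricular arrays, and its limma adjusted p was 0.106. The value rested on 1 array, with a log2 fold of -0.72 without AV junction 1b (limma adjusted p = 0.0179) and -0.19 without AV junction 1a (limma adjusted p = 0.360).

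Genes with more than 1 tested probe set gave a check on direction within the array. For 21 of the 46 genes 33 further probe sets were tested, of which 25 had the same sign as the probe set that represents the gene and 8 the opposite sign. Only 2 of the 33 passed, 1 of Slc2a3 and 1 of Slc2a1. For the genes that passed, 5 further probe sets of 4 genes all had the same sign, and 1 of them passed.

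**Figure D4:**
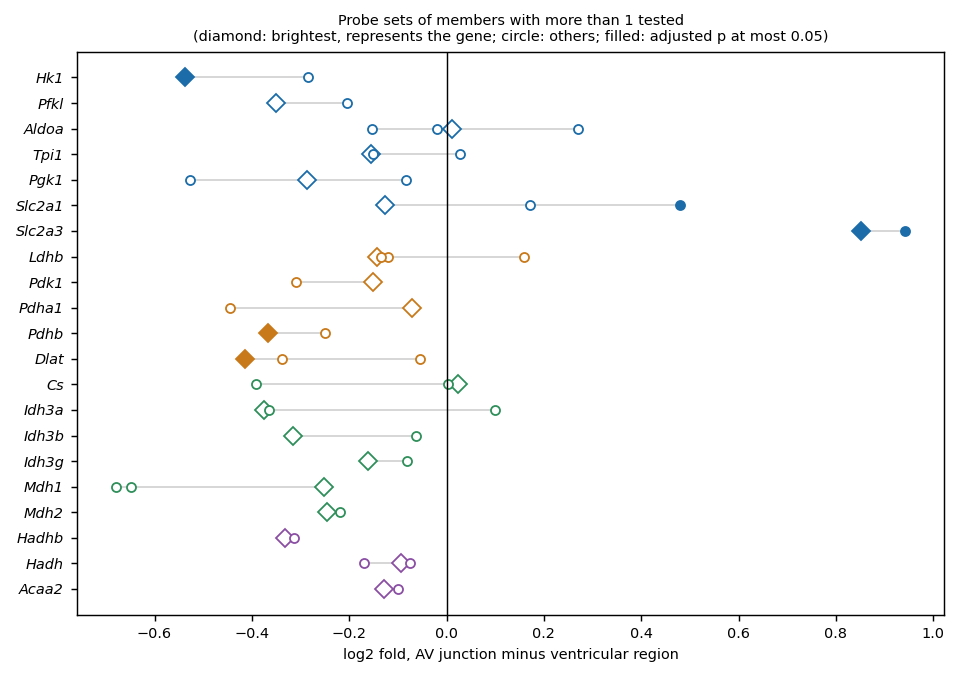
Log2 folds (horizontal axis, AV junction minus ventricular region) of every tested probe set of the 21 genes with more than 1, with a diamond for the probe set that represents the gene, circles for others, and filled marks where the adjusted p was at most 0.05. The 2 Slc2a3 probe sets lie together at 0.85 and 0.94, while those of Slc2a1 run from -0.13 to 0.48.

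Isoenzyme pairs were compared by the log2 ratio of their probe sets on each array, which shows a shift of balance between the regions but not which form is more abundant. With 2 arrays against 2, the smallest two-sided p of an exact permutation test is 0.333, so these 9 shifts are descriptions. In glycolysis the ratio was lower on both AV junction arrays than on both ventricular arrays for Pfkl against Pfkm (-0.61), Pfkp against Pfkm (-0.40), Aldoa against Aldoc (-0.29) and Pgam1 against Pgam2 (-0.24). Single arrays moved some of these shifts by over 1.5 times. Without ventricular 1a the shift was -0.34 for Pfkl against Pfkm and -0.16 for Pfkp against Pfkm, without ventricular 1b that of Pfkp was -0.65, and without AV junction 1a that of Pgam1 against Pgam2 was -0.13. The shifts of Slc2a1 against Slc2a3 and of Hk1 against Hk2 given above were also without overlap. Each ratio used the brightest probe set of a gene. The other Aldoa probe sets had log2 folds of 0.27, -0.02 and -0.15, and those of Slc2a1 had 0.48 and 0.17. Ratios with these probe sets were not computed. Suclg2 against Sucla2 shifted by 0.45 with Suclg2 near background (0.19 without AV junction 1a, 0.70 without AV junction 1b and 0.30 without ventricular 1b), and Mdh1 against Mdh2 by -0.01 with overlap.

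**Figure D5:**
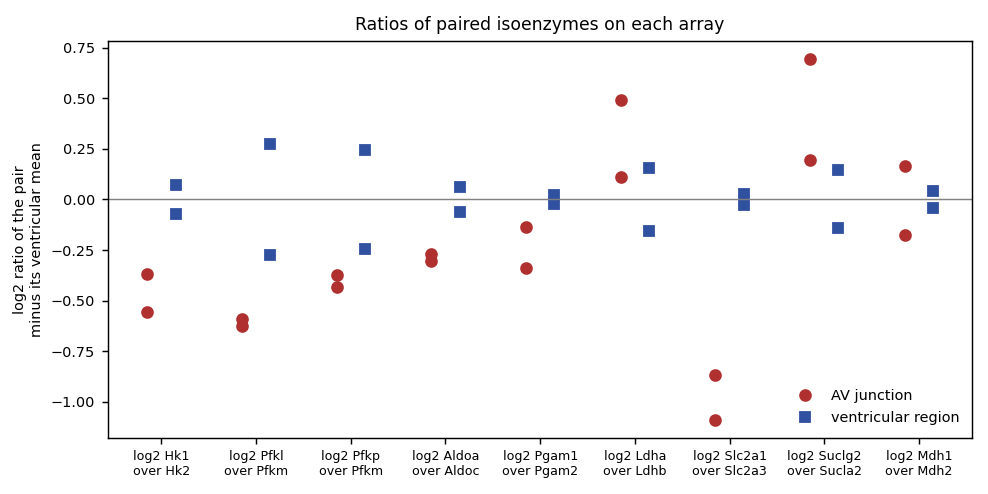
Log2 ratio of each of 9 isoenzyme pairs on each array minus the mean of the ventricular arrays (vertical axis), with AV junction arrays in red on the left of each pair and ventricular arrays in blue on the right. The Slc2a1 to Slc2a3 ratio shows the lowest AV junction values, a shift of -0.98, and the Ldha to Ldhb and Mdh1 to Mdh2 ratios overlap between regions.

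The stretches before the starts of Dlat and Acadvl are shown because both genes fell and because these 2 windows, unlike those of Hk1, Eno3 and Pdhb, lie outside every gene span of the annotation. The sequences are from RefSeq, build GRCm38.p6, and cover the 250 bases before the start, read 5' to 3' on the gene's strand. The Dlat window is chr9:50659781-50660030 on the minus strand with 62.8% G and C, and the Acadvl window is chr11:70015429-70015678 on the minus strand with 49.6%. Capitals mark a match to ACGTG, the core bound by hypoxia-inducible factors, read on either strand.
Dlat: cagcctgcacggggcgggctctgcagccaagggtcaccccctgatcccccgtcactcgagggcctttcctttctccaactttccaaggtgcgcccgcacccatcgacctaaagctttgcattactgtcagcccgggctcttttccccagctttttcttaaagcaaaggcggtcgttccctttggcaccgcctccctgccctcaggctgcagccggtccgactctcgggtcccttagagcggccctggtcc
Acadvl: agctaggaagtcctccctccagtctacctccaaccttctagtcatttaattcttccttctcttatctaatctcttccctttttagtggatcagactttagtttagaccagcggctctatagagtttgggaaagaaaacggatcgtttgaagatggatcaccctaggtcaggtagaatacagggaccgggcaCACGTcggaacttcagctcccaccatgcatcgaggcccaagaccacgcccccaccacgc
The match in Acadvl lies 59 bases before the start, on the other strand, and the Dlat window holds none of the motifs searched.

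Windows were in the table for 46 of the 49 genes, which are not the same 46 as those tested, and were searched on both strands for 4 short motifs, none of which overlapped another in the genes that passed. ACGTG was found in 13 genes (28.3%, against 18.5% of 27025 genes), of which 7 of 17 were in glycolysis, 2 of 7 at the pyruvate branch, 3 of 10 in the TCA cycle and 1 of 12 in fatty acid oxidation. GCATGCG, a core of nuclear respiratory factor 1, was in 6 genes (13.0%, against 3.43%). AAGGTCA, the core of oestrogen-related receptors, was in 2 genes (4.35%, against 4.70%), and CCGGAAG, of ETS factors, in 3 (6.52%, against 7.83%). In Pdhb an ACGTG match began 248 bases and a GCATGCG match 176 bases before the start. These shares describe letters in the windows and were not tested.

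Genes of the same pathways outside the set gave calls in both directions. Of further glycolysis and pyruvate genes 19 were tested, of which 2 rose and 0 fell (10.5% called, against 15.0% of all genes, median log2 fold -0.17). Both belong to the pentose phosphate branch, which diverts sugar from glycolysis to make NADPH and ribose. Tkt, a transketolase, had 11044 and 11612 on AV junction arrays, against 7245 and 7025 on ventricular arrays (log2 fold 0.66, limma adjusted p = 0.00397). Pgd, the phosphogluconate dehydrogenase, had 5445 and 5651 on AV junction arrays and 3778 and 3674 on ventricular arrays (log2 fold 0.57, limma adjusted p = 0.00808). Neither gene overlapped between regions. Pgls and Taldo1, of the same branch, did not pass, with log2 folds of -0.38 and 0.25 (limma adjusted p = 0.126 and 0.226).

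Around the TCA cycle 4 of 17 further genes passed (23.5%, against 15.0% of all genes), 2 in each direction, with a median log2 fold of -0.28. Idh1, the cytosolic NADP-dependent isocitrate dehydrogenase, had 2203 and 2327 on AV junction arrays, against 999 and 1331 on ventricular arrays (log2 fold 0.94, limma adjusted p = 0.00763). Glud1, a glutamate dehydrogenase, rose by a log2 fold of 0.60 (limma adjusted p = 0.0138). Sdha, the catalytic subunit of succinate dehydrogenase, had 4424 and 4658 on AV junction arrays and 6009 and 6484 on ventricular arrays (log2 fold -0.46, limma adjusted p = 0.0194). Dlst, the core of the oxoglutarate dehydrogenase complex, had a log2 fold of -0.38 and passed (limma adjusted p = 0.0491).

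Among 22 further genes of fatty acid uptake and oxidation 4 fell and 2 rose (27.3% called, against 15.0% of all genes), with a median log2 fold of -0.13. Acot13, an acyl-CoA thioesterase, had 852 and 1107 on AV junction arrays, against 2352 and 2265 on ventricular arrays (log2 fold -1.21, limma adjusted p = 0.00238). Its regions did not overlap, and no gene of the set fell as far. Fabp3, the fatty acid binding protein of heart muscle, had 1094 and 1155 on AV junction arrays and 1891 and 1919 on ventricular arrays (log2 fold -0.74, limma adjusted p = 0.00538). The dim genes Crat, a carnitine acetyltransferase, and Slc27a4, a fatty acid transport protein, also fell, with log2 folds of -0.90 for Crat (limma adjusted p = 0.0453) and -0.84 for Slc27a4 (limma adjusted p = 0.0416). Hsd17b4, of peroxisomal beta-oxidation, rose by a log2 fold of 0.49 (limma adjusted p = 0.0381). The cardiac muscle sum in the AV junction, with its widest gaps in Myh7 and Myl3, was 0.723 times the ventricular level. The erythroid sum was 0.368 times the ventricular level. The cushion and hepatic sums were higher. Any part of these sums in the folds of metabolic genes was not tested.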

How the data were processed

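Expression was measured on 4 arrays, 2 per region. The deposited values are 1 linear intensity per probe set and array, made by the authors, per the submitters' processing notes, using MAS5, with a version not given in the sources used here and no detection calls. From these, all arrays were brought to a 2% trimmed mean of 500. Probe sets with a mean of at least 100 were kept (13403 of 22626), and the log2 of the deposited intensity after scaling plus 50 was fitted with limma 3.58.1 (lmFit, eBayes with trend, R 4.3.3) on region alone. Fold changes include the added 50. P-values were adjusted over all 13403 probe sets by Benjamini and Hochberg's method, and an adjusted p of at most 0.05 passed. The total degrees of freedom were 7.43, so the number of arrays limits the precision.

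The members and lists were chosen with earlier results of these data known. No list was tested as a set. Array values were to be given for genes that passed, Gapdh, isoenzyme partners of genes that passed and the brightest gene without a call in each pathway. From other lists the largest changes that passed were to be given, at most 5 per list. Values of Idh3a, Idh3b, Cpt1a, Etfb, Pgls and Taldo1, of single cardiac muscle genes and of further probe sets, were added after they were seen. Background on an array was its brightest Bacillus subtilis control, 52.6 and 58.6 on AV junction arrays, against 97.9 and 104 on ventricular arrays. Between arrays of a region r was 0.979 to 0.980, and between regions 0.947 to 0.950. The instrument records showed 1 chip lot, 1 fluidics station and 1 scan day. Of 39 settings recorded, 1 differed between arrays, the one named Module. Same-numbered arrays did not deviate together (correlation 0.06). Alternatives were another scaling, pseudocount, floor, variance trend, replicate block, choice of probe set, and each array left out. Figures used matplotlib 3.10.9 in Python 3.11.15.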

Additional observations from a re-analysis of the deposited data

How the results depend on the processing

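Directions of the 6 genes that passed were the same under every alternative run, and Slc2a3 passed in all of them in which its probe sets were kept, with log2 folds of 0.78 to 1.01. The counts moved more. With median scaling 1210 genes were higher and 288 lower, so higher genes made up 80.8% of calls, against 56.3%, and 2 of the 46 metabolic genes passed, with 0 at the pyruvate branch and 0 in fatty acid oxidation. Without the floor 439 were higher and 272 lower, 2 metabolic genes passed, and the pyruvate branch and fatty acid oxidation had 0 each. Without the variance trend 244 were higher and 209 lower, 1 metabolic gene passed, in glycolysis, the pyruvate branch and fatty acid oxidation had 0 each, and 5 genes of the 5 further lists (pathways, regulators and hypoxia-inducible factor targets) passed, against 17. With the replicate block 854 genes were lower, and 13 metabolic genes passed, 4 of the TCA cycle and 3 of fatty acid oxidation. The numbers did not pair the arrays in the check of deviations. With quantile normalisation 2 TCA cycle genes passed, and 2 with a floor of 300. With probe sets averaged per gene 3 metabolic genes passed and 0 at the pyruvate branch, and without probe sets ending in _x_at or _s_at 1 passed there. With 1 array left out, higher genes numbered 301 to 369 and lower genes 167 to 314. Metabolic genes that passed then numbered 1 to 3, in glycolysis 1 to 2, at the pyruvate branch 0 to 0, in fatty acid oxidation 0 to 1, and genes of the further lists 6 to 9. Fewer arrays leave fewer degrees of freedom, and the other causes were not tested. Among the 40 genes without a call, 12 of 595 alternative values passed, and 28 changed sign, in 17 genes.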

Other observations

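Regulators of these pathways and targets of hypoxia-inducible factors were read beside the metabolic genes. Of 13 regulators tested 2 rose in the AV junction, 0 fell and 11 did not pass (15.4% called, against 15.0% of all genes). Their median log2 fold was -0.03. Both that rose encode prolyl hydroxylases that mark hypoxia-inducible factors for destruction. Egln3 had 668 and 716 on AV junction arrays, against 379 and 330.4 on ventricular arrays (log2 fold 0.88, limma adjusted p = 0.00945), and Egln2 had 2673 and 2649 on AV junction arrays and 1755 and 2015 on ventricular arrays (log2 fold 0.49, limma adjusted p = 0.0249). Hif1a, a subunit of the factor itself, had 5233 and 5072 on AV junction arrays, against 5259 and 5295 on ventricular arrays, a log2 fold of -0.03.

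Of 11 further targets of hypoxia-inducible factors tested, 1 rose, 2 fell and 8 did not pass (27.3% called, against 15.0% of all genes). Their median log2 fold was 0.15. Ddit4, an inhibitor of growth signalling under stress, had 571 and 618 on AV junction arrays and 325 and 276 on ventricular arrays (log2 fold 0.88, limma adjusted p = 0.0112). Tfrc, the transferrin receptor, is also expressed by red cell precursors. It had 2541 and 2543 on AV junction arrays, against 3499 and 3703 on ventricular arrays (log2 fold -0.49, limma adjusted p = 0.0152). The erythroid sum was 0.368 times the ventricular level, and its part in the Tfrc value was not tested. Car9, a carbonic anhydrase, was dim and also fell (log2 fold -0.87, limma adjusted p = 0.0442).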
